A study of Mus musculus with 721 samples.

Results

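The visceral endoderm (VE) covers the egg cylinder of the mouse embryo before and during early gastrulation. The comparison here is between VE cells with and without Cer1 messenger RNA at E6.5, and it asks which genes beyond the known markers go with an anterior VE identity. Cells were taken as VE where the mean log2(CPM + 1) of Apoa1, Ttr, Cubn, Dab2, Amn and Apoc2 exceeded that of the epiblast genes Pou5f1, Tdgf1 and Dnmt3b. CPM are the counts of a gene scaled to a common total for each cell. This gate passed 53 of 250 cells of the E6.5 group, out of 721 cells in the series. Of these, 26 cells held Cer1 at 10 CPM or more (Cer1-positive) and 27 held less (Cer1-negative). The gate genes and Cer1 chose the cells and their classes, so values of these genes are a description and no test of them is given.

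All cells were from wild-type embryos of the C57Bl/6Babr strain with no treatment named, and each cell was 1 library made with the G&T-seq amplification of messenger RNA. At E6.5 the extraembryonic tissues had been removed before dissociation, so the VE cells are those left on the embryonic portion. The 53 cells came from 13 embryos at E6.5, of which 9 were on plates P1, P2 and P3, 2 had titles without a plate name, and 2 were titled E6.75, also without a plate name. The labels do not say whether E6.5 embryos 1 and 2 without a plate name are the same-numbered embryos of plate P1. They were counted apart, so 13 and 9 embryos rest on that reading, and merging them gave 49 cells in 9 embryos holding both classes, with no gene called. The 5 wells labelled as doublets among the 53 were kept, and their removal was tried as an alternative. Both classes were present in 9 embryos, 6 on plates and 3 without a plate name, with 21 Cer1-positive and 23 Cer1-negative cells. These 44 cells carry the comparison, since the embryo is the replicate and cells of an embryo share its age, plate and dissociation. In 5 of the 9 embryos the Cer1-positive class was a single cell, and in 3 the Cer1-negative class was.

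The anterior visceral endoderm (AVE) is a group of VE cells that moves from the distal tip of the egg cylinder to its future anterior side. It secretes antagonists of Nodal and Wnt signals, among them Cer1, Lefty1 and Dkk1, and thereby limits the primitive streak to the opposite side. The remaining embryonic VE is an absorptive epithelium that takes up proteins by endocytosis and secretes apolipoproteins and other serum proteins.

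Cer1, a secreted antagonist of Nodal, BMP and Wnt ligands, lies on chromosome 4 (82881751 to 82885148, minus strand, GRCm38). Its level in the 26 Cer1-positive cells ran from 27.8 to 2122 CPM with a median of 373 CPM. The 2 cells just inside the limit held 27.8 and 46.2 CPM and the 2 just outside held 7.68 and 6.73 CPM. No read of Cer1 was counted in 22 of the 27 Cer1-negative cells. The sequence from 250 bases before to 50 after the start of Cer1 is shown because this gene parts the classes, and 1 of 4 RefSeq starts of Otx2, a homeobox factor of the AVE, is shown because it was the only AVE gene window with the first motif searched. Both are RefSeq windows on GRCm38.p6, printed 5′ to 3′ on the minus strand of each gene, and capitals mark a motif match.
Cer1, chr4:82885102-82885401: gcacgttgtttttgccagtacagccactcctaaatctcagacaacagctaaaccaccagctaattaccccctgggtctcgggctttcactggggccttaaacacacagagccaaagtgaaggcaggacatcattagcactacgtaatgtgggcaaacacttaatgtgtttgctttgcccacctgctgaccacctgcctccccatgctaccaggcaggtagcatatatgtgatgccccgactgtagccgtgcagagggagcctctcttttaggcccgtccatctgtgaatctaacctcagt
Otx2, chr14:48665060-48665359: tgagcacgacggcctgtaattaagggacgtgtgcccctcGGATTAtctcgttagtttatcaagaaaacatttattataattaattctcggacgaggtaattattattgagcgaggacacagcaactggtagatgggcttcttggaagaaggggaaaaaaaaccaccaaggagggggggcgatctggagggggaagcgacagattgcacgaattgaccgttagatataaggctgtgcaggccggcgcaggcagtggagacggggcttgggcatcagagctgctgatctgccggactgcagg
The motifs were TAATCC (bound by factors of the Otx2 and Gsc class), TGTTTAC (forkhead), AATCCACA (Foxh1) and CTTTGAT (Tcf and Lef), on either strand, and TAATCC can overlap AATCCACA. Of the 16 AVE genes listed, 12 had a RefSeq window. Otx2 alone held TAATCC and Foxa2 alone held CTTTGAT, while none held the other two. Of all 27025 genes with a window, 8.14%, 4.05%, 1.01% and 4.29% held the motifs in this order.

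**Figure D1:**
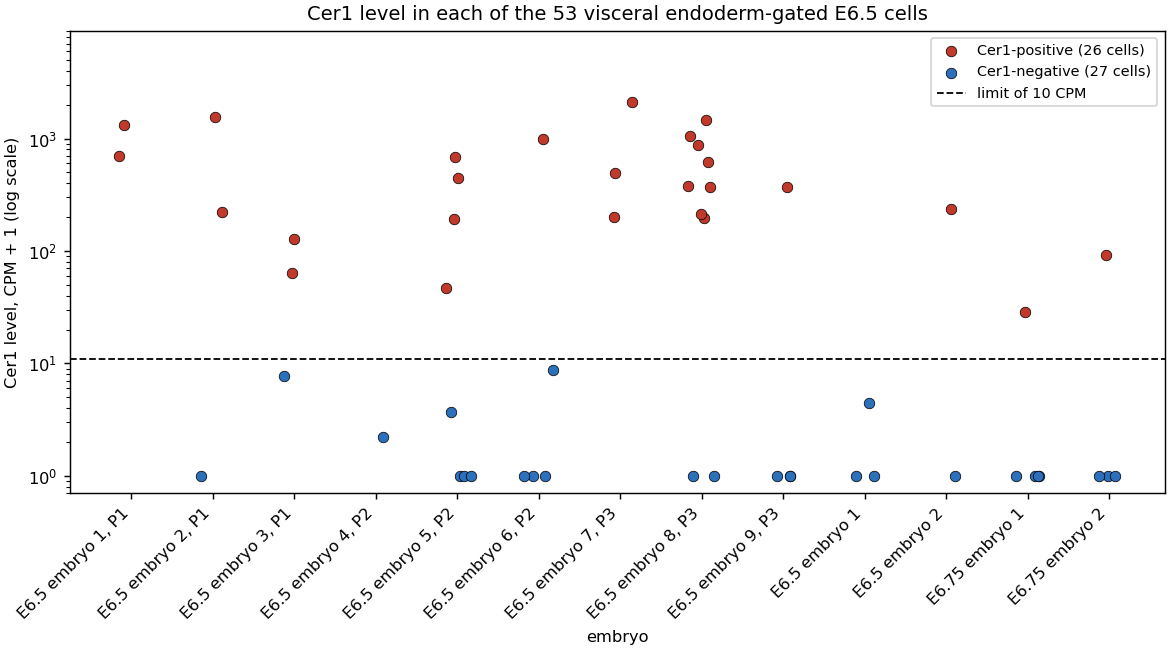
Cer1 level of each of the 53 cells (CPM + 1, log scale) by embryo, with the plate after the embryo number; red points are Cer1-positive, blue points Cer1-negative and the dashed line is the limit of 10 CPM. Cells of 8 plated embryos reach 46.2 to 2122 CPM, and the 3 Cer1-positive cells of embryos without a plate name lie between 27.8 and 233 CPM.

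Cer1 was not confined to the gate. It reached 10 CPM in 80 of the 197 other E6.5 cells, which is 40.6%, with a median of 58.4 CPM among those 80. Of these, 24 came from the 30 other cells of E6.5 embryo 2 without a plate name, and without that embryo 56 of 167 cells (33.5%) reached the limit. No cell of 99 at E3.5 reached it, which allows a share of up to 3.03% by counting error alone (3 counts over the cells). These cells are counted as 10 embryos, where those without an embryo number in their title are taken as the same embryo. Cells of an embryo are not independent.

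Known AVE genes were detected in more Cer1-positive than Cer1-negative cells, mostly on the plates. Hhex and Hesx1 encode homeobox repressors needed for the forebrain, and Lefty1 encodes a Nodal antagonist. Hhex reached 10 CPM in 17 of 26 Cer1-positive and 3 of 27 Cer1-negative cells, Hesx1 in 15 and 2, and Lefty1 in 14 and 2. The counts for Dkk1, a secreted Wnt antagonist, were 20 and 6. Gsc, a homeobox gene of the anterior endoderm and the streak, reached it in 15 and 2 cells. Of the 197 other E6.5 cells, 26 held Hhex at this level, 20 held Hesx1, 41 held Lefty1, 66 held Dkk1 and 40 held Gsc.

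Every cell was also thinned to 200000 counts, which left out 1 Cer1-positive cell. Hhex then reached 10 CPM in 16 of 25 Cer1-positive and 5 of 27 Cer1-negative cells, Hesx1 in 13 and 2, Lefty1 in 12 and 2, and Dkk1 in 19 and 7. Counted over Hhex, Hesx1, Lefty1, Dkk1, Gsc, Lhx1, Otx2 and Sfrp1, a Cer1-positive cell held a median of 6 of the 8 genes at 10 CPM (range 2 to 8) and a Cer1-negative cell a median of 3 (range 0 to 7). At least 6 of the 8 were held by 18 Cer1-positive cells and by 1 Cer1-negative cell before thinning, and by 15 and 3 after it.

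That Cer1-negative cell was the only VE cell of E6.5 embryo 4 of plate P2, and it is named here after its values were seen. It held 1.24 CPM of Cer1 (2 reads) beside 2703 CPM of Dkk1, 312 CPM of Lefty1, 1372 CPM of Sfrp1, 659 CPM of Otx2 and 537 CPM of Lhx1. Its embryo held no Cer1-positive VE cell, so it stands outside the comparison.

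**Figure D2:**
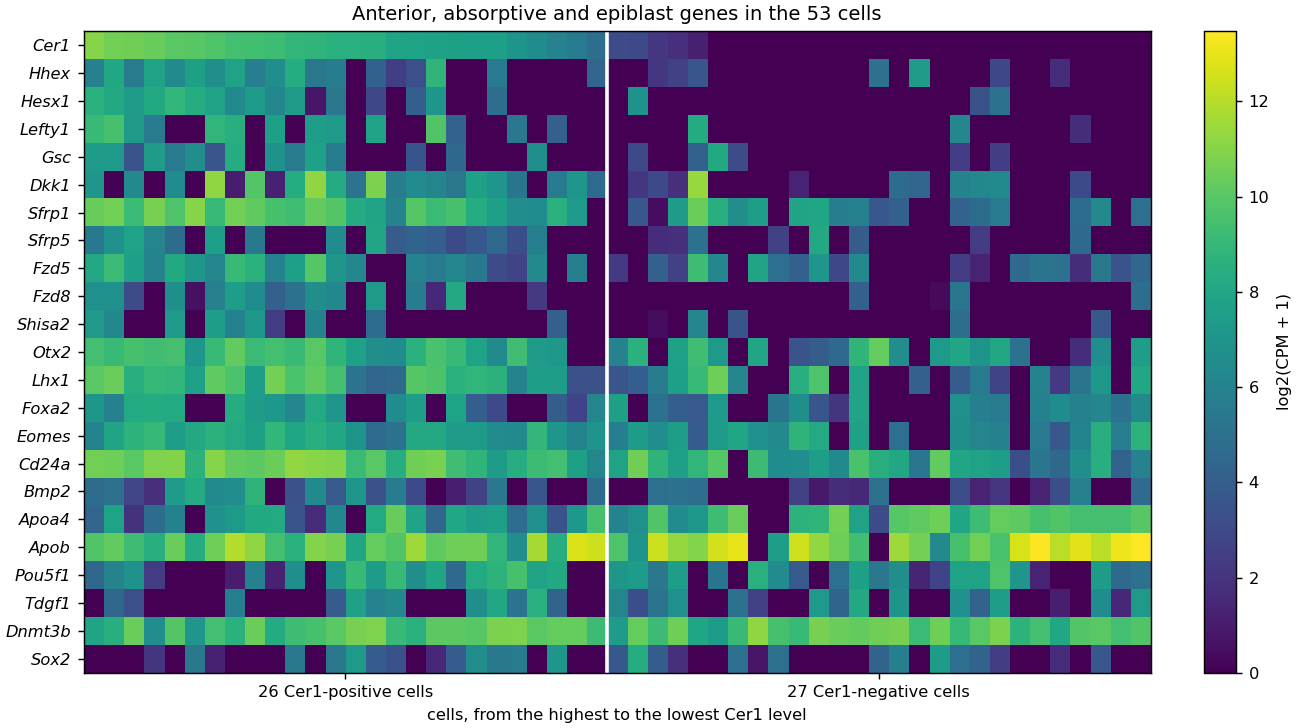
Level of 23 genes (rows, log2(CPM + 1) as colour) in the 53 cells (columns), ordered from the highest to the lowest Cer1 level, with a white line between the 26 Cer1-positive and 27 Cer1-negative cells. Hhex, Hesx1, Lefty1, Gsc and Dkk1 are detected mostly to the left of the line, with Dkk1 split among the cells highest in Cer1, and Apoa4 is brightest on the right.

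Among the 26 Cer1-positive cells the AVE genes did not all follow Cer1. Spearman's rho with the Cer1 level, given as a description over cells of 11 embryos that differ in depth, was 0.87 for Hesx1, 0.76 for Sfrp1, 0.71 for Fzd5 and 0.68 for Hhex. It was 0.44 for Lefty1 and -0.03 for Dkk1. The cell with the most Cer1 (2122 CPM, E6.5 embryo 7 of plate P3) held 128 CPM of Dkk1, and the cell with 1557 CPM (E6.5 embryo 2 of plate P1) held none. In contrast, Dkk1 reached 2436 CPM in a cell with 443 CPM of Cer1 (E6.5 embryo 5 of plate P2). The rho was 0.35 for the total count of the cell and 0.15 for the gate difference.

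The plates and the embryos without a plate name differed in these genes, and 2 of the 3 compared embryos without a plate name are also titled E6.75, so plate and stage cannot be told apart. The 18 Cer1-positive cells with at least 6 of the 8 AVE genes were among the 23 of plated embryos. The 3 Cer1-positive cells of embryos without a plate name held 2, 4 and 4 of them. The median number of genes detected in Cer1-positive cells was 6020 on plates and 7966 in the others.

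For the comparison, raw counts were summed per embryo and class and levels are CPM scaled by the TMM method, in 9 Cer1-positive and 9 Cer1-negative sums. Cer1 itself was at 26.6 to 1017 CPM in the Cer1-positive sums and 0 to 7.19 CPM in the others. The gate genes overlapped widely. Apoa1, an apolipoprotein, was at 3635 ± 2437 CPM (SD, n = 9) in Cer1-positive sums and 3344 ± 2176 CPM in Cer1-negative ones. Ttr, the thyroxine carrier, was at 3316 ± 2210 and 3818 ± 3048 CPM. Apoc2, a lipase cofactor, was at 1406 ± 1444 and 2777 ± 1975 CPM and lower in the Cer1-positive sum of 6 of 9 embryos. Cubn, the endocytic receptor cubilin, was at 673 ± 616 and 926 ± 709 CPM. Amn, its partner amnionless, was at 679 ± 556 and 681 ± 535 CPM, and Dab2, the adaptor for their uptake, at 1411 ± 628 and 1149 ± 696 CPM. The epiblast gate genes were present in both classes, with Pou5f1 at 230 ± 240 and 161 ± 240 CPM, Tdgf1 at 0 to 355 and 0 to 163 CPM and Dnmt3b at 897 ± 546 and 1232 ± 713 CPM. In the other cells of the same embryos Pou5f1 was at 627 ± 352 CPM.

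A difference in depth was not detected over the 9 embryos. Embryo means of log10 total counts were 5.84 ± 0.284 (SD, n = 9) in Cer1-positive and 5.93 ± 0.127 in Cer1-negative cells (exact two-sided sign-flip permutation test, p = 0.391, where the smallest possible is 0.0039). Genes detected were 6436 ± 1096 and 6726 ± 1658 (p = 0.457 in the same exact test). Without E6.75 embryo 1 the depth difference passed 0.05 (exact p = 0.0469), with less depth in Cer1-positive cells.

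No gene outside Cer1 and the gate genes, which are given no test, was called across all genes. With edgeR's quasi-likelihood test, embryo as a block and Benjamini-Hochberg adjustment, 0 of 6400 genes (0%) were called higher and 0 (0%) lower, where a call needs an adjusted p within 0.05 and more than 1 log2 unit of change, and all had an adjusted p of 1. At an unadjusted p under 0.05, 36 genes (0.562%) were higher and 78 (1.22%) were lower in Cer1-positive VE, 114 in all. This is fewer than the share of 0.05 that would pass if no gene differed, so the 114 are no sign of a difference. The lack of calls does not show that no gene differs. The median log2 fold change of all genes was -0.19, and 61.8% of them were negative and 38.2% positive. DESeq2 on the same sums called 5 higher and 6 lower (0.0781% and 0.0938%), and 0 of either when it tested against a log2 fold change of 1 (smallest adjusted p = 0.0553). edgeR without a filter on low counts called 1 of each (0.00691% of 14476 genes). The coefficient of biological variation between sums was 1.12.

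**Figure D3:**
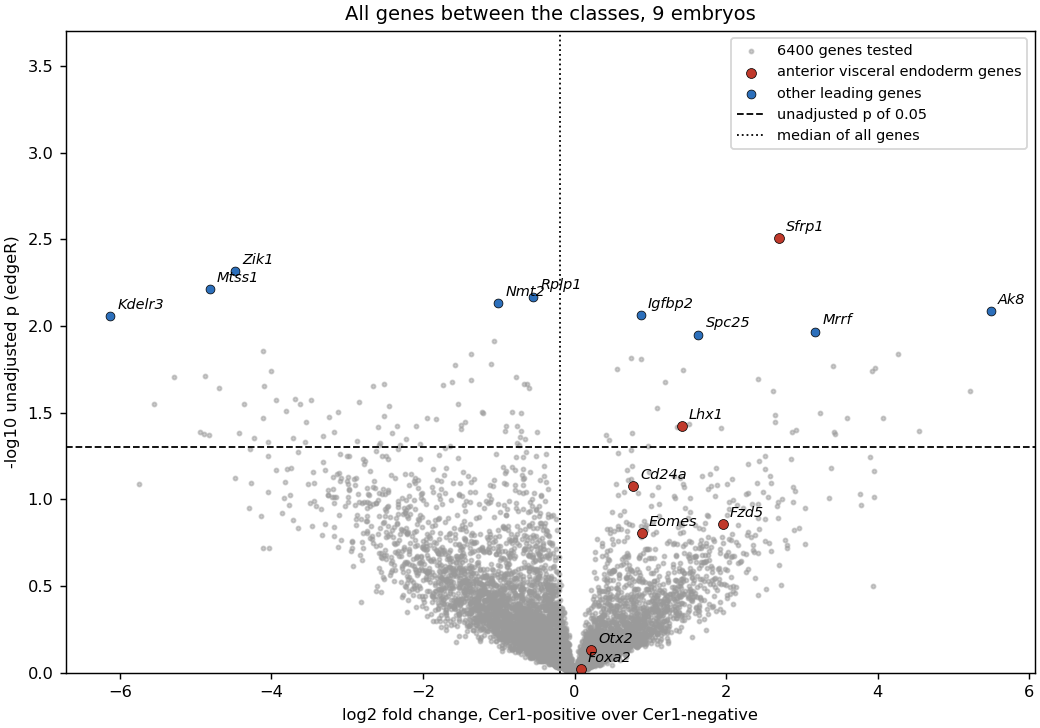
Log2 fold change (Cer1-positive over Cer1-negative, x axis) against -log10 of the unadjusted p from edgeR (y axis) for the tested genes, with AVE genes in red, the other leading genes in blue, a dashed line at p = 0.05 and a dotted line at the median of all genes, -0.19. Sfrp1 has the smallest p, and the 7 AVE genes shown lie to the right of 0.

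Sfrp1, a secreted antagonist of Wnt ligands, had the smallest p of all genes. Its Cer1-positive and Cer1-negative sums held 1264 and 361 CPM in E6.5 embryo 2 of plate P1, 262 and 12.6 in embryo 3 of P1, 622 and 112 in embryo 5 of P2, and 2144 and 162 in embryo 6 of P2. They held 643 and 34.9 CPM in embryo 8 of P3, 333 and 2.67 in embryo 9 of P3, 63.2 and 40.1 in E6.5 embryo 2 without a plate name, 0 and 4.02 in E6.75 embryo 1, and 87.4 and 27.2 in E6.75 embryo 2. Sfrp1 was thus higher in the Cer1-positive sum of 8 of 9 embryos, with E6.75 embryo 1 the exception and the widest gaps on the plates. In embryo 3 of P1, embryo 8 of P3 and embryo 9 of P3 a whole class held only cells that passed the VE gate by under 1 log2 unit. The log2 fold change of Sfrp1 was 2.69 (SE 0.77, edgeR unadjusted p = 0.00312, adjusted p = 1). The gene was called with DESeq2 (adjusted p = 0.00498) and in edgeR without a filter (adjusted p = 0.00668), but not by DESeq2 against a log2 fold change of 1.

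The other 4 leading genes higher in Cer1-positive VE were Ak8, Igfbp2, Mrrf and Spc25, and none of them passed in edgeR. DESeq2 called Ak8 (adjusted p = 0.00106) and Mrrf (adjusted p = 0.00811). Ak8, an adenylate kinase, was at 10.9 to 460 CPM (median 24.2) and 0 to 82.5 CPM (median 0), with a log2 fold change of 5.49 (SE 1.82, edgeR adjusted p = 1). All its Cer1-positive sums held reads, so it could pass the filter on low counts by that class alone. Without that filter edgeR did not call Ak8 or Mrrf. Igfbp2, which binds insulin-like growth factors, was at 272 to 2228 CPM (median 655) against 196 to 715 CPM (median 368). Its log2 fold change was 0.87 (SE 0.29). Mrrf, a mitochondrial ribosome recycling factor, was at 76.3 ± 58.9 against 14.3 ± 18.3 CPM (log2 fold change 3.18, SE 1.10). Spc25, a kinetochore subunit, was at 417 ± 265 against 175 ± 144 CPM (1.63, SE 0.57 on the log2 scale). Ak8, Igfbp2 and Mrrf were higher in 8 of 9 embryos and Spc25 in 6 of 9, while 71 of the 6400 genes (1.11%) were higher in at least 8.

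The 5 leading genes lower in Cer1-positive VE were Zik1, Mtss1, Rplp1, Nmt2 and Kdelr3. Zik1, a zinc finger gene, was at 0 to 20.5 CPM (median 0) against 0 to 356 CPM (median 28.9), lower in 7 embryos and at 0 in both sums of the other two. Its log2 fold change was -4.47 (SE 1.34, edgeR adjusted p = 1). Kdelr3, a receptor that returns proteins to the endoplasmic reticulum, was at 7.57 ± 14.4 against 111 ± 84.5 CPM (log2 fold change -6.13, SE 2.03) and was called by DESeq2 (adjusted p = 0.00105). Kdelr3 was near absent from the other E6.5 cells of these embryos (0.969 ± 1.57 CPM). It may have passed the filter on low counts by the Cer1-negative sums alone, and edgeR without that filter did not call it. Mtss1, which binds actin at membranes, was at 3.56 ± 8.76 against 18.5 ± 13.7 CPM. Nmt2, an N-myristoyltransferase, was at 364 ± 163 against 792 ± 531 CPM. Rplp1, a ribosomal stalk protein, was at 3322 ± 1544 against 5539 ± 4451 CPM, and reads of its processed copies could add to it. The highest Cer1-negative sum of Rplp1, 15495 CPM against a median of 3036, was that of E6.5 embryo 9 of plate P3, which stood apart with a TMM factor of 0.529 (the other sums 0.936 to 1.18). In that sum 1 of 3 cells gave 3451994 of 4396379 counts with 4039 genes detected, the fewest of the 53 cells. Without this embryo the log2 fold change of Rplp1 was -0.42. Mtss1, Nmt2 and Rplp1 were each lower in 8 of 9 embryos, against 2.44% of all genes lower in at least 8, with log2 fold changes of -4.81, -1.01 and -0.55.

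The list of 16 AVE genes has 15 beside Cer1, of which 7 passed the filter on low counts and 0 were called in either direction (0% of all genes each way). 2 of the 7 had an unadjusted p under 0.05 on the higher side, where 0.562% of all genes did. The median log2 fold change of the 7 was 0.89 against -0.19 for all genes. Sfrp1, Cd24a, Fzd5 and Otx2 are also on the study's own list of genes higher in AVE. That list was chosen on cells of this series, so these values are not independent evidence of a direction. Lhx1, a homeobox factor of the AVE and node, was at 8.86 to 1153 CPM (median 173) against 4.45 to 1465 CPM (median 39.5), higher in 6 of 9 embryos. Its log2 fold change was 1.42 (SE 0.63, edgeR unadjusted p = 0.0377, adjusted p = 1), and -0.085 with a VE gate over 2 log2 units (4 embryos). Fzd5, a Wnt receptor, was at 128 ± 140 against 34.5 ± 34.1 CPM (1.95, SE 1.25 on the log2 scale), and at -1.86 in the embryos without a plate name. Cd24a, a surface glycoprotein, was at 715 ± 498 against 648 ± 705 CPM (0.77, SE 0.42), higher in 7 of 9 embryos. Over all 53 VE-gated cells, the median of single cells was 1064 CPM in Cer1-positive and 194 CPM in Cer1-negative cells. Among the sums, the most Cd24a was held by 2 Cer1-negative ones, of E6.5 embryo 3 of plate P1 and embryo 9 of P3. The latter is the sum with the TMM factor of 0.529, and without its embryo the log2 fold change was 1.03.

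Otx2, Eomes and Foxa2 are transcription factors that act in the AVE but are shared with other tissues. Otx2 was at 272 ± 197 against 251 ± 304 CPM, higher in 4 embryos and lower in 5 (log2 fold change 0.21, SE 0.64). It was at 295 ± 67.5 CPM in the other E6.5 cells. Eomes was at 200 ± 121 against 127 ± 85.6 CPM (0.89, SE 0.60) and Foxa2 at 61.4 ± 61.1 against 55.5 ± 51.1 CPM (0.08, SE 1.41). The sign turned for Otx2 without embryo 5 or 6 of plate P2 (-0.073 and -0.079), and for Foxa2 without embryo 3 of P1, 5 of P2, 8 of P3 or E6.5 embryo 2 without a plate name (-0.39, -0.44, -0.030 and -0.17). These 3 did not differ beyond the spread between embryos, and Foxa2 reached 10 CPM in 17 Cer1-positive and 18 Cer1-negative cells.

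The other 8 AVE genes, including the 3 markers Hhex, Hesx1 and Lefty1, were left out by the filter because most sums held few reads. Hhex was at 0 to 206 CPM (median 19.08) in the Cer1-positive sums and 0 to 46.7 CPM (median 0.454) in the others, higher in 5 embryos, lower in 2 and at 0 in both sums of 2. Hesx1 was at 0 to 331 CPM against 0 to 128 CPM, both with a median of 0, higher in 4 and lower in 2. Lefty1 was at 0 to 420 CPM against 0 to 0.366 CPM, higher in 4 and lower in 1. The embryos where Hesx1 and Lefty1 were higher were all on plates, and the Cer1-positive sums of the 3 embryos without a plate name held no read of either gene.

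Dkk1 was at 931 against 0.227 CPM in E6.5 embryo 5 of plate P2 and at 577 against 0 CPM in embryo 8 of P3. In the other embryos its Cer1-positive sum held 0 to 49.7 CPM and its Cer1-negative sum 0 to 74.1 CPM. It was higher in 6 embryos and lower in 2. Gsc was higher in 4 and lower in 3, with 288 CPM in the Cer1-negative sum of E6.5 embryo 2 of plate P1. The Wnt antagonist Sfrp5 was at 26.7 ± 34.7 against 13.4 ± 35.6 CPM, and the Wnt receptor gene Fzd8 at 21.4 ± 32.4 against 1.86 ± 3.58 CPM. Shisa2, which retains Wnt and FGF receptors inside the cell, was at 19.3 ± 28.7 against 0.672 ± 1.35 CPM.

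In the fit without a filter these 8 genes had an adjusted p of 1. The unadjusted p from that edgeR fit was 0.00141 for Lefty1, 0.00126 for Dkk1, 0.00709 for Hesx1 and 0.0599 for Hhex. The mean within-embryo difference of log2(CPM + 1) was 2.24 ± 3.96 (SD, n = 9) for Hhex, 1.86 ± 5.65 for Hesx1, 2.95 ± 3.77 for Lefty1 and 3.62 ± 3.84 for Dkk1, so the spread between embryos exceeded the mean. In the 2 embryos with at least 2 cells of each class (E6.5 embryo 5 of plate P2 and embryo 8 of P3), edgeR called 17 genes higher and 5 lower (0.195% and 0.0575% of 8701). Lefty1, Dkk1, Hesx1, Lhx1 and Sfrp1 were among the 17, with Grb10, Atp8a1, Flrt3, Perp, Xbp1 and Trf. Of these, Dkk1, Hesx1, Sfrp1, Grb10 and Atp8a1 are on the study's list of genes higher in AVE, chosen on cells of this series. Their direction is thus not independent evidence. A test in 2 embryos measures the spread between those 2 only. Both Cer1-negative cells of embryo 8 of P3 passed the VE gate by only 0.61 and 0.50 log2 units. The Cer1-positive cells there passed it by 0.88 to 7.28 log2 units. In embryo 5 of P2 the smallest gate difference was 0.78 in Cer1-negative and 0.21 in Cer1-positive cells. What these cells near the gate add to the calls was not tested.

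**Figure D4:**
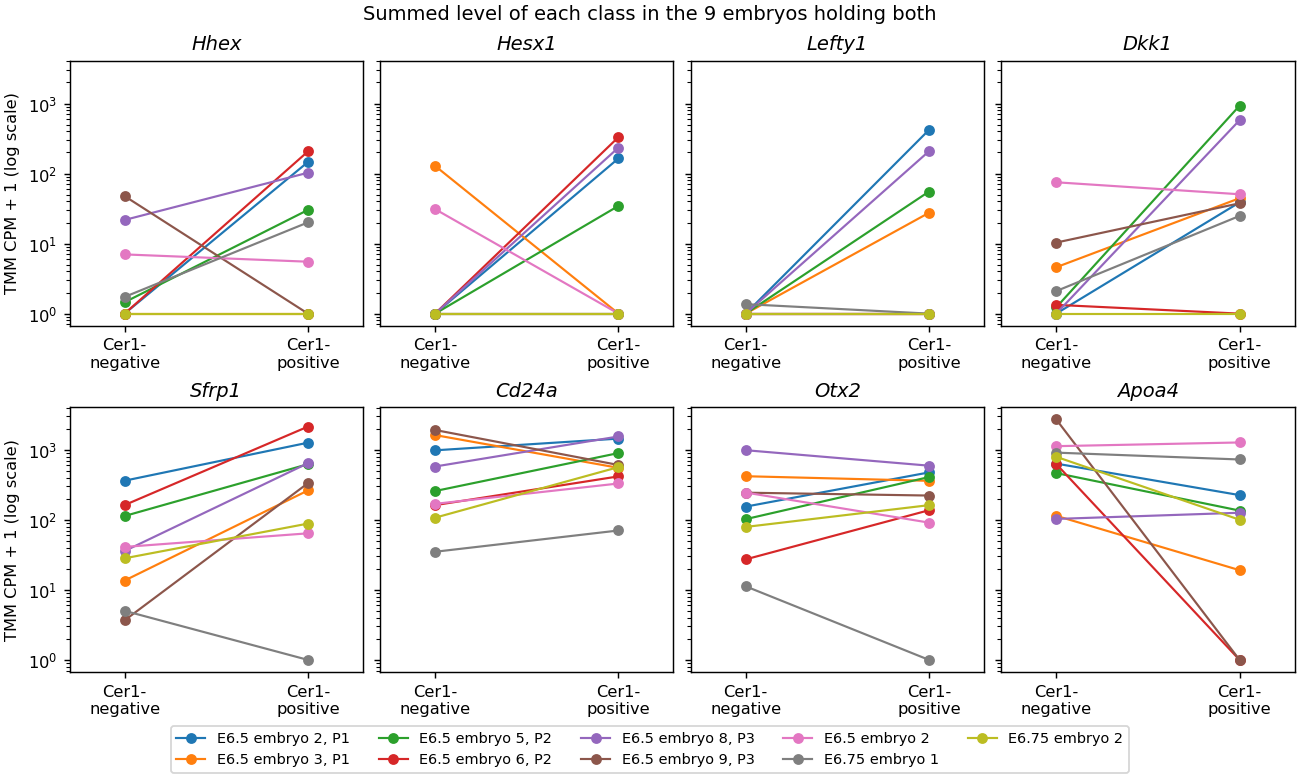
TMM-scaled CPM + 1 (log scale) of 8 genes in the Cer1-negative and Cer1-positive sum of each embryo, joined by a line. The Cer1-positive end is higher in 8 of 9 embryos for Sfrp1 and in 4 for Lefty1, and lower in 7 of 9 for Apoa4, while Otx2 is higher in 4 and lower in 5.

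Wnt, Nodal, BMP and FGF genes were listed by pathway, since the AVE is known as a source of their antagonists. No member of the 4 lists was called. Of 34 Wnt genes with a row 12 were tested, 4 with a positive and 8 with a negative log2 fold change, and their median was -0.11. The median of 9 Nodal genes tested was -0.36, that of 9 BMP genes 0.04 and that of 11 FGF genes -0.68. Of the FGF genes 4 were positive and 7 negative, a split near that of all genes (61.8% negative). The medians of the Wnt, Nodal, BMP and FGF lists changed sign in 16, 11, 9 and 1 of 29 alternatives, that of Wnt over a range of -1.78 to 1.46, so no direction is given for Wnt, Nodal and BMP. Bmp2, a BMP ligand named after its values were seen, was at 0 to 321 CPM (median 49.7) against 0 to 20.8 CPM (median 2.73), higher in 8 embryos and lower in none. Its log2 fold change was 4.26 (SE 1.54, edgeR unadjusted p = 0.0145, adjusted p = 1, DESeq2 adjusted p = 0.0354). Bmp2 reached 10 CPM in 14 Cer1-positive, 6 Cer1-negative and 21 of the 197 other cells.

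The list of 22 endoderm transcription factors had 14 members tested, and all 14 had a positive log2 fold change (median 0.93 against -0.19 for all genes). Lhx1, Otx2, Eomes and Foxa2 among the 14 are counted in the AVE list too. Tcf7l2 and Otx2 are also on the study's list of genes higher in AVE, so this list is not a separate result. None was called, and 1 had an unadjusted p under 0.05. The median was positive in 28 of 29 alternative settings and -0.69 in the embryos without a plate name alone. Besides Lhx1, Otx2 and Eomes, Tcf7l2, a transcriptional effector of Wnt signals, was at 5.14 to 1226 CPM (median 68.7) against 13.3 to 94.5 CPM (median 56.4) (0.97, SE 0.81 on the log2 scale), with -1.69 in the embryos without a plate name. 8 members were left out by the filter.

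Genes of the absorptive VE were in 2 lists, to be read against 61.8% negative and a median of -0.19 over all genes. Of 19 lipoprotein and serum protein genes outside the gate, 12 were tested, 11 had a negative log2 fold change, and none was called (median -0.55). Apoa4, Apob and Apom are also on the study's list of genes lower in AVE, chosen on cells of this series. Their direction is thus not independent evidence. Apoe was at 4220 ± 2286 against 4798 ± 2498 CPM, a log2 fold change of -0.08 (SE 0.24). Apob, which carries secreted lipid particles, was at 1854 ± 1777 against 3275 ± 3152 CPM (-0.60, SE 0.43), Apom at 1050 ± 827 against 1499 ± 751 CPM (-0.59, SE 0.40) and the fetal serum protein Afp at 1022 ± 1155 against 1510 ± 1701 CPM (-0.33, SE 0.92). Apoa4, an intestinal-type apolipoprotein that is named because the fit without a filter called it, was at 0 to 1273 CPM (median 125) against 102 to 2720 CPM (median 635). It was lower in 7 of 9 embryos, with a log2 fold change of -2.23 (SE 1.02, edgeR unadjusted p = 0.0447, adjusted p = 1, without a filter adjusted p = 0.00193). All 3 Cer1-positive cells of the embryos without a plate name held at least 100 CPM of Apoa4, as did 11 of the 23 on plates.

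Endocytosis and lysosome genes had 20 members tested, 14 negative and 6 positive, with a median of -0.32 and none called. Ctsl, Ctsb, Ctsz, Lgmn, Slc2a3 and Abcc2 of this list are on the study's list of genes lower in AVE too. The direction of these genes is likewise not independent evidence. The cathepsin gene Ctsl was at 2029 ± 1399 against 2647 ± 1960 CPM (-0.17, SE 0.30 on the log2 scale). Ctsb, another cathepsin, was lower in 8 of 9 embryos, at 537 ± 404 against 939 ± 612 CPM (-0.72, SE 0.33, edgeR adjusted p = 1). Both absorptive lists had a negative median in 28 of 29 alternatives, the exception being the 2 embryos with at least 2 cells of each class, where the medians were 0.57 and 1.03 and Apob, Apom, Apoe, Afp, Ctsl and Ctsb were positive. Each list changed its side of the median of all genes in 3 of 29. Both Cer1-negative cells of E6.5 embryo 8 of plate P3, 1 of those 2 embryos, passed the VE gate by under 1 log2 unit.

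Metabolic genes of threonine, polyol and one-carbon pathways had 14 members tested, 12 of them negative, with a median of -0.95 and none called. Of all genes 61.8% were negative, with a median of -0.19. The list median changed sign in 1 of 29 alternatives, the embryos with at least 2 cells of each class. There it was 0.16, with 7 members positive and 7 negative. The study's own search for genes that go with or against Cer1 in cells of this series had named Sord, Tdh and Srebf2. Their direction here is thus not independent evidence. Sord, which turns sorbitol into fructose, was at 0 to 223 CPM (median 1.21) against 0 to 371 CPM (median 90.5) and lower in 8 of 9 embryos (log2 fold change -3.10, edgeR unadjusted p = 0.0548, adjusted p = 1). It reached 10 CPM in 5 Cer1-positive and 21 Cer1-negative cells, and over the 53 cells its rho with Cer1 was the lowest of all genes, -0.66. Tdh, threonine dehydrogenase, was at 0 to 253 CPM (median 44.7) against 0 to 518 CPM (median 96.2) (-1.18, SE 1.56), and reached 10 CPM in 7 and 19 cells. Srebf2, the regulator of sterol synthesis, was at 15.8 ± 24.5 against 61.1 ± 70.7 CPM (-2.02, SE 1.56), while the 16 cholesterol synthesis genes tested had a median of 0.02, 8 on either side of 0.

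**Figure D5:**
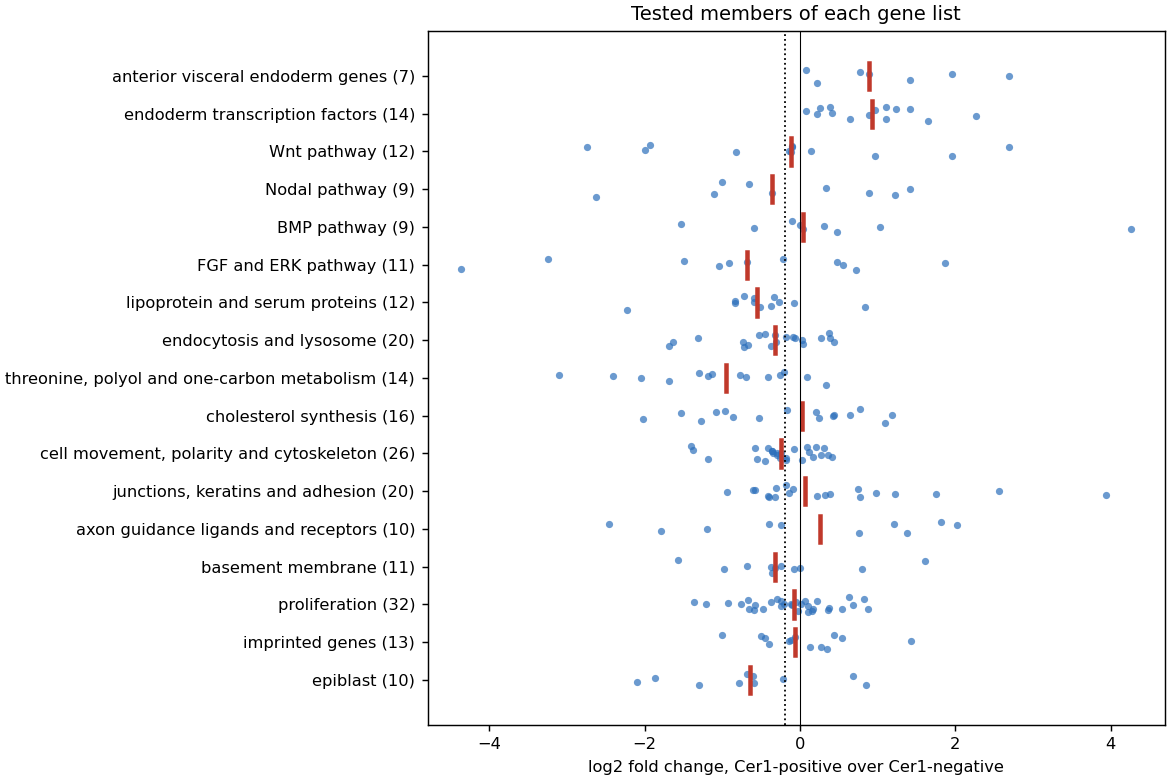
Log2 fold change (x axis) of each tested member of 17 gene lists (blue points, number tested in parentheses), with the list median in red, the median of all genes as a dotted line and a line at 0. The AVE and endoderm transcription factor lists lie to the right of 0, and the lipoprotein and one-carbon lists lie mostly to the left.

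Genes of cell shape and movement were examined because AVE cells migrate. Of 26 movement and cytoskeleton genes tested 9 were positive and 17 negative (median -0.25), and of 20 junction and keratin genes 10 and 10 (median 0.07), with none called. Krt8 and Krt18, the paired keratins of simple epithelia, were at 844 ± 752 against 376 ± 308 CPM (0.98, SE 0.51) and at 801 ± 743 against 385 ± 221 CPM (0.74, SE 0.35). Each was higher in 7 of 9 embryos, with unadjusted p of 0.0700 and 0.0518 in edgeR. Krt8 is on the study's list of genes higher in AVE, so its direction is not independent evidence. The tight junction gene Cldn6 was at 572 ± 518 against 771 ± 401 CPM (-0.58, SE 0.43). Among 10 axon guidance genes tested, 5 of them negative (median 0.26), Flrt3, a membrane protein needed for VE integrity, was at 451 ± 353 against 234 ± 257 CPM (0.76, SE 0.49). The median of 11 basement membrane genes was -0.32.

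Of 32 proliferation genes tested, 14 were positive and 18 negative, with a median of -0.07 and none called. Top2a, the topoisomerase of dividing cells, was at 932 ± 568 against 419 ± 121 CPM, higher in 8 of 9 embryos (0.87, SE 0.32, edgeR adjusted p = 1). The log2 fold change of Top2a was -0.18 in the embryos without a plate name. The 13 imprinted genes tested had a median of -0.07. Medians changed sign in 12 of 29 alternatives for cholesterol synthesis, 10 for imprinted, 9 for proliferation, 8 for junction and 6 for axon guidance genes, and in 3 for movement and 3 for basement membrane genes. Grb10, an imprinted adaptor of growth factor receptors, was at 52.5 to 949 CPM (median 240) against 39.1 to 270 CPM (median 135) and higher in 7 of 9 embryos (1.43, SE 0.54, unadjusted p = 0.0179). Its Cer1-positive sums exceeded every Cer1-negative sum in 4 embryos, all on plates. Grb10 is on the study's list of genes higher in AVE, so its direction is not independent evidence.

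Lists of genes higher and lower in AVE cells had been chosen by the study on cells of this series, so they are not independent evidence of a direction. Beside Cer1 and the gate, 14 and 15 of their genes were tested here, and all 14 had a positive and all 15 a negative log2 fold change in the sums (medians 1.06 and -0.60), with none called.

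Over the 53 cells, with no test and chosen after values were seen, the genes whose level was most like that of Cer1 were Sfrp1, Hesx1, Cd24a, Hhex and Grb10 (Spearman's rho 0.76, 0.76, 0.72, 0.70 and 0.68). Lhx1 was rank 11 (0.61), Otx2 rank 14 (0.59), Gsc rank 17 (0.58), Lefty1 rank 22 (0.55) and Dkk1 rank 40 (0.50) of 8132 genes with 10 CPM in at least 10 cells. The lowest rho belonged to Sord, Tspan13, Apoc2, Tdh and Tmem37 (-0.66 to -0.57). The classes were made from the Cer1 level, so this order does not bear on the comparison of the classes. Depth and embryo are shared by all genes of a cell, and ranks with many zeros are tied.

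Markers of other cells were present in both classes. Summed over 15 epiblast genes outside the gate, the level was 504 to 1859 CPM (median 1156) in Cer1-positive and 655 to 2276 CPM (median 1271) in Cer1-negative sums, against 1569 to 2212 CPM in the other E6.5 cells. It was higher in the Cer1-positive sum of 4 of 9 embryos. For 17 streak and mesoderm genes, 7 of which stand on the AVE or pathway lists too, the ranges were 167 to 1963 CPM and 27.6 to 3851 CPM, higher in 6 of 9. For 15 extraembryonic ectoderm genes they were 58.7 to 1025 and 87.1 to 433 CPM, higher in 5 of 9, and for 16 parietal endoderm genes 354 to 1598 and 162 to 2122 CPM, higher in 4 of 9. Tbx6, Tpbpa, Thbd and Plat were at 0 in every sum. The 16 stress genes summed to 3454 to 8450 and 3663 to 14931 CPM. The tested members had a median log2 fold change of -0.64 for 10 epiblast genes, 0.73 for 5 streak genes, 0.73 for 2 extraembryonic ectoderm genes, 0.36 for 6 parietal endoderm genes and -0.43 for 6 stress genes, with none called. The gate difference was under 1 log2 unit in 5 Cer1-positive and 4 Cer1-negative cells, and the part of epiblast RNA in the results was not tested.

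Cells the rule did not use were too few for a test at earlier stages. At E4.5, 76 cells passed a primitive endoderm gate and none reached 10 CPM of Cer1 (highest 8.89 CPM), which allows up to 3.95% of them by counting error alone over cells of 5 embryos, so the comparison planned there could not be made. At E5.5, 8 of 267 cells passed the VE gate and 5 of them, from 3 embryos, held Cer1 at 21.0 to 234 CPM, while none of the 259 others did. Lefty1 reached 10 CPM in 4 of these 5 cells (187 to 2296 CPM) and was at 0 in the 3 without Cer1. Hesx1 was held by 2 of the 5 (215 and 317 CPM) and by all 3 without Cer1 (14.3, 284 and 315 CPM). Lefty1 was thus detected in Cer1-positive cells alone among these 8 and Hesx1 in both kinds, over 4 embryos, with 5 cells from 1 embryo.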

How the data were processed

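Single-cell RNA-seq counts of 721 mouse embryo cells were used. The counts per gene and cell are as deposited by the authors, who per the labels trimmed reads with Trim Galore 0.4.3 and aligned them with HISAT2 2.0.5 to GRCm38, while the methods name other versions. They were counted per gene in SeqMonk and not normalized. Cells with few genes or many mitochondrial reads, and trophoblast cells, had been removed by the authors. Genes and their antisense partners may share reads, as strand-specific counting is not given in the sources used here. The table has 24483 gene rows on chromosomes 1 to 19, and 111 rows that share a symbol were kept apart. Embryo, stage, plate and well came from the titles.

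Raw counts were summed per embryo and class in embryos with at least 1 cell of each, 214290 to 5950884 counts per Cer1-positive sum and 594015 to 6237519 per Cer1-negative sum. They were tested with edgeR 4.0.16 in R 4.3.3 (TMM, its filter on low counts, embryo as a block, quasi-likelihood test, Benjamini-Hochberg adjustment), on 6410 genes of which Cer1 and the 9 gate genes are given no test. The filter keeps a gene with enough counts in as many sums as 1 class holds, so 1 class can carry a gene into the test. Calls needed an adjusted p within 0.05 together with more than 1 log2 unit of change. Both classes of an embryo are from the same animal, which pairs them. Deviations of the paired sums from their class means correlated at 0.01 to 0.35 (median 0.07), and over 0.1 in 3 of 9 embryos. DESeq2 1.42.0, limma 3.58.1, Python 3.11.15, numpy 2.4.6, pandas 2.3.3 and scipy 1.17.1 were used as well. The code was tested on simulated data.

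The members, the 23 gene lists and the tests were chosen with earlier results of these data known. Genes are named if they are Cer1, gate genes, Hhex, Hesx1 or Lefty1, the 5 of smallest p in either direction, genes the study names for the AVE or other VE, or among the 4 of highest level in a list. Others are said to be named after their values were seen. Reads lack molecular identifiers, and cells share embryos, so the limits given for 0 cells cover counting error only. The alternatives were tests, normalization, filters, Cer1 and gate limits, depth, doublets, stages, plates and each embryo left out, and a gate over 1 log2 unit and limma voom with sample weights were added after seeing the data.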

Additional observations from a re-analysis of the deposited data

Results flagged for a closer look

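In 42 genes the 9 within-embryo differences of log2(CPM + 1) were checked for an embryo far from the others, and 4 were found. By chance about 1 in 20 would be. Rplp1 was lowest in E6.5 embryo 9 of plate P3, with -1.72 against -0.78 to 0.04 in the others. Krt8 was lowest in the same embryo, with -3.41 against -0.02 to 3.22. Ctsb was highest in E6.5 embryo 8 of plate P3, with 1.63 against -2.12 to -0.27. Afp was lowest in E6.5 embryo 6 of plate P2, with -9.88 against -2.49 to 3.93, and the Cer1-positive sum there is 1 cell. Cer1 of at least 10 CPM in 80 E6.5 cells outside the VE gate and in 5 VE-gated cells at E5.5 are signals in cells that the comparison does not use.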

How the results depend on the processing

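No gene was called in either direction in 27 of 30 settings. DESeq2 called 5 higher and 6 lower, edgeR without a filter on low counts 1 and 1, and the 2 embryos with at least 2 cells of each class 17 and 5; the cause was not tested. Without the replicate block 0 and 0 were called, so the pairing changed no call, and leaving out each embryo gave 0 to 0. The difference in log10 total counts was -0.150 at a Cer1 limit of 50 CPM (exact p = 0.0313) and -0.138 to -0.0191 with an embryo left out. That in genes detected was -453 to -34.3 with an embryo left out, 17.96 with Cer1 at 1 count, 77.3 in single wells and 126 on plates alone.

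Of 34 named genes, 14 changed sign in 35 of 960 values, and 914 values kept sign and side of the threshold. In the embryos without a plate name the log2 fold change was -1.23 for Otx2, -1.86 for Fzd5, -0.66 for Foxa2, -1.69 for Tcf7l2 and -0.18 for Top2a. With at least 2 cells of each class it was 0.65 for Srebf2, 0.49 for Ctsl, 0.69 for Ctsb, 1.10 for Apob, 0.027 for Apom, 0.68 for Apoe, 0.57 for Afp and 0.024 for Cldn6. With limma on class means it was -0.39 for Foxa2, 0.035 for Ctsl, 0.19 for Apob and 0.26 for Apoe, and with voom -0.068 for Otx2. With a gate over 2 log2 units it was -0.085 for Lhx1 and -0.013 for Foxa2, and over 1 unit -0.80 for Foxa2. Otx2 was at -0.19 with Cer1 at 1 count, Foxa2 at -0.15 in single wells, and Apoe at 0.13 without E6.75 and 0.060 on plates. With an embryo left out the ranges were -0.079 to 0.56 for Otx2, -0.44 to 0.72 for Foxa2, -0.28 to 0.059 for Apoe and -0.84 to 0.12 for Afp. The alternatives for E4.5 were not run, as no cell there was Cer1-positive. Sums of 1 cell limit the depth of low genes.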
